A study of Mus musculus with 24 samples.

Results

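Annexins are proteins that bind phospholipids of negative charge in the presence of calcium, by a core of repeated domains and a variable N-terminal tail. They gather at the inner face of the plasma membrane and at vesicles, where they take part in membrane repair, vesicle traffic and the anchoring of the actin cortex. In adipose tissue, Anxa1 and Anxa2 are known as abundant members, and Anxa2 has been described at caveolae and in the uptake of fatty acids. The transcripts of 9 annexin genes, Anxa1 to Anxa8 and Anxa11, were followed in brite adipocytes after knockdown of the long noncoding RNA Ctcflos. The table lists 52089 gene symbols in 168326 transcript entries, of which 70 entries carried the symbol of a member. Each gene was represented by the RefSeq mRNA entry with the highest mean RPKM, that is, reads scaled by transcript length and by the library's mapped reads, over the 24 libraries. The family was selected on the RPKM of Anxa8 at 72 h, so that its differences in KD 72 h are described here without a test.

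Primary preadipocytes came from the stromal vascular fraction of inguinal white adipose tissue of 129SvEv mice. They were differentiated with rosiglitazone, an agonist of PPARγ that drives white fat cells towards a heat-producing programme. On the first day of differentiation all cells received a gapmer at 50 nM, a short modified DNA strand through which RNase H cuts the paired RNA. It was aimed at Ctcflos (KD) or had no target (NC), and cells were harvested after 24 h or 72 h. There were 6 libraries for KD and 6 for NC at either time. The paper calls such samples biological replicates, while the labels tie none to an animal or culture, and p-values measure the spread between these samples. All groups share rosiglitazone and a gapmer transfection, and untransfected cells were not analysed here.

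Libraries held between 1391832 (KD 24 h replicate 6) and 5423840 mapped reads, with a median of 3945867. Replicates 2 and 3 of NC 72 h differed by less than the sampling noise and were averaged into 1 sample, so that this group had n = 5. By their deviations from the group means, 16 libraries formed a larger cluster and 8 a smaller one, which held 2 of each group, and effects were also computed within each. The 5 adipocyte markers summed to between 28100 and 54500 RPKM, with medians of 29600 in KD 72 h and 42400 in NC 72 h, and 1 of them was called lower in KD at 24 h and 3 at 72 h. In contrast, the 4 endothelial and 6 epithelial markers each averaged under 1 RPKM in every group, and the 6 macrophage markers summed to between 3.15 and 29.8 RPKM. Of the latter 3 could be tested, with Csf1r called higher in KD at both times (1.22 and 1.23 on the log2 scale) and Lyz2 lower at 72 h (-3.68). Of 8 stromal progenitor markers 5 could be tested at 72 h, and Cd34 (2.02) and Pdgfrb (0.59) were called higher. Of 4 smooth muscle markers 3 could be tested at 72 h, and Tagln was called lower (-0.76). Lyz2 had 31 reads in all of KD 72 h and 308 in NC 72 h, and only NC carried it past the minimum on reads. Cd34 had 112 reads in KD 72 h and 20 in NC 72 h, and only KD carried it past that minimum. Of the 5 brite markers 4 were called lower in KD at 24 h and 5 at 72 h, and the part of any of these markers in the annexin differences was not tested. In bulk samples fewer cells of a type and less RNA per cell cannot be told apart. Ctcflos itself (1300015D01Rik, NR_040321) averaged 0.189 RPKM in KD 24 h and 0.741 RPKM in NC 24 h, with too few reads to be fitted and overlapping ranges. At 72 h it ranged from 0.00 to 0.517 RPKM in KD (17 reads in all) and from 0.886 to 1.75 RPKM in NC (91 reads), so that the groups did not overlap and only NC carried it past the minimum on reads.

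The 300 bases around the start site of 3 members whose levels differed at 72 h are printed first, so that the start of each gene can be seen beside its values: Anxa8 and Anxa5, both higher in KD, and Anxa4, which was lower. Each window holds mainly the bases before the annotated start, on the gene's strand, and was taken from RefSeq for GRCm38.p6, which provided windows for 7 of the 9 members. Capitals mark CG dinucleotides. The window of Anxa8 is chr14:34085729-34086028 (plus strand), that of Anxa5 is chr3:36475838-36476137 (minus strand) and the upstream one of 2 windows of Anxa4 is chr6:86793535-86793834 (minus strand).
Anxa8: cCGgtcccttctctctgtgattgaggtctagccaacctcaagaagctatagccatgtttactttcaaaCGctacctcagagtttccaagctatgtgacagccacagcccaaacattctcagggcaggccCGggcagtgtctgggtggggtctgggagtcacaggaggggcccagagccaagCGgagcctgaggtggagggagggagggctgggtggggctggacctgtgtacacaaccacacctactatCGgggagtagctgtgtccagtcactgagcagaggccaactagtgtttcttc
Anxa5: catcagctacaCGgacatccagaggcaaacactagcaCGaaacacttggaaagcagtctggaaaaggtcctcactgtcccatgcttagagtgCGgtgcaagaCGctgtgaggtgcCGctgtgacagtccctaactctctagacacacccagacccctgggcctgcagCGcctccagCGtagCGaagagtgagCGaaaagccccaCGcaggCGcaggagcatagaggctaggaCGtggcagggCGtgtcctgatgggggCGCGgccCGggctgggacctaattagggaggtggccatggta
Anxa4: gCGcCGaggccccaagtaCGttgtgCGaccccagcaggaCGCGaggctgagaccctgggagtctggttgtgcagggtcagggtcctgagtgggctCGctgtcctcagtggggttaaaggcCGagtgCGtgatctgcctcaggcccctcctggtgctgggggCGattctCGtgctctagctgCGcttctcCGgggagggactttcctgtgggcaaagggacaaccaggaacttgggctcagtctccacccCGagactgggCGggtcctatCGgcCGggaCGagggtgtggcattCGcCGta

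The Anxa8 window holds 5 CG dinucleotides, whereas those of Anxa5 and Anxa4 hold 16 and 20. Over all 32851 windows of this length the median is 7, with quartiles at 3 and 20. None of these 3 windows contains TATAAA, the core of the TATA box, which occurs on either strand in 13.6% of all windows, nor TGACTCA, the AP-1 consensus, found in 5.2%. GGGCGG, the core of the GC box, occurs 1 time in the Anxa4 window, 0 times in the other two, and in 35.7% of all windows. The Anxa2 window holds 1 TATAAA, 3 GGGCGG and 1 TGACTCA. Such matches are letters in a window, and binding was not measured.

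The members lay far apart in level. Anxa2, the heavy chain of a heterotetramer with S100a10, was the most abundant member in every group and stood at position 23 of all genes by mean RPKM over the libraries. In NC 24 h it averaged 3792 ± 203 RPKM (SD, n = 6). Anxa1, a phospholipase A2 inhibitor that signals resolution of inflammation, and Anxa5, which caps exposed phosphatidylserine, followed at 735 ± 154 and 607 ± 24.4 RPKM, with overlapping ranges. Anxa3 at 74.79 ± 20.02 RPKM and Anxa4 at 67.0 ± 9.24 RPKM overlapped too. Anxa7, Anxa6 and Anxa8 came below at 30.4 ± 4.30, 17.2 ± 1.46 and 0.408 ± 0.251 RPKM, and none of these 3 overlapped with its neighbours in the order. The same order of members held in NC 72 h, except that Anxa5 (740 ± 44.9 RPKM, SD, n = 5) stood above Anxa1 (531 ± 125 RPKM), again with overlapping ranges. In KD 72 h the ranges of Anxa5 and Anxa1 no longer overlapped, and Anxa8 stood above Anxa6 with overlap. Reads were taken at 3′ ends while RPKM divides by the whole transcript, so that a longer transcript has a lower RPKM at the same number of reads. Anxa11, which recruits RNA granules to lysosomes, was listed at 0 in all libraries of KD 24 h, NC 24 h and NC 72 h and reached at most 0.207 RPKM in KD 72 h. The RefSeq entry of Ppia, used by every cell, was also listed at 0 throughout, so that a level of Anxa11 cannot be read from its entry.

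**Figure D1:**
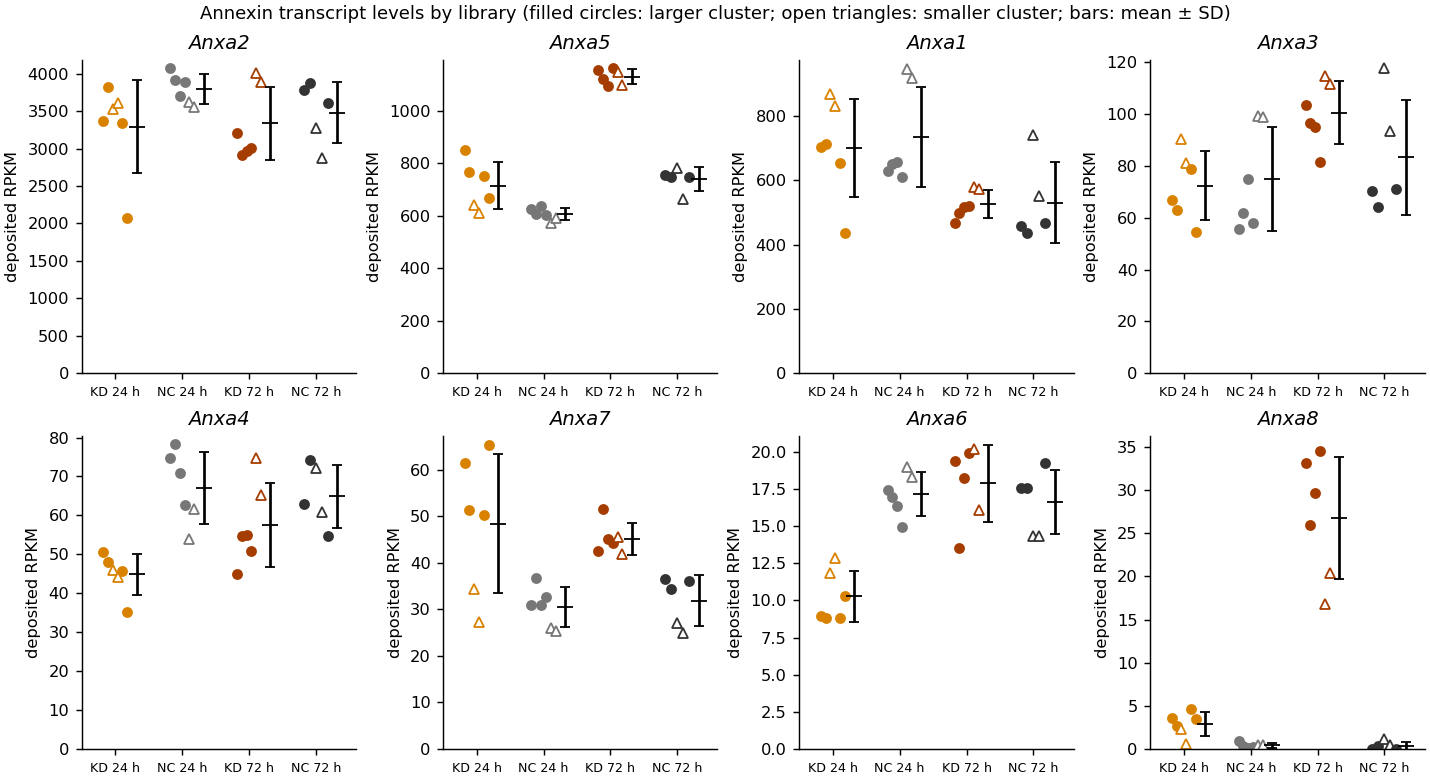
Deposited RPKM (y axis, linear, from 0) of 8 annexins in the 4 groups (x axis); each point is a sample, filled circles belong to the larger and open triangles to the smaller library cluster, and bars give mean ± SD. Anxa5 in KD 72 h (1094 to 1164 RPKM) lies above every other sample of the gene, Anxa6 is lowest in KD 24 h, and Anxa8 is near 0 except in the KD groups.

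The first comparison asked which annexins responded within 24 h of the knockdown. Of the 7 members that could be tested, 3 were called, Anxa4 and Anxa6 lower and Anxa7 higher, while 22.6% of all 52151 entries were called in this comparison. With 7 genes the share of members called is a description. In the same comparison 2 of 7 members had groups that did not overlap, against 11.1% of all entries. The members' median log2 fold change was -0.14 and that of all entries -0.01. Fold changes are on the log2(RPKM + 0.1) scale after scaling between libraries, and every adjusted p-value is limma's over all entries.

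Anxa6, a large annexin with duplicated core that binds membrane and actin and takes part in cholesterol traffic, showed the largest drop of the tested members. In deposited RPKM its KD 24 h samples ranged from 8.81 to 12.8 with a median of 9.65, and those of NC 24 h from 14.9 to 19.0 with a median of 17.2. No KD sample reached the NC range. The log2 fold change was -0.80 ± 0.15 (SE, adjusted p = 0.0028). The 6 tested entries of the gene were all called lower, with log2 fold changes from -0.88 to -0.80, though they share reads. Within the larger cluster the log2 fold change was -0.93 ± 0.15 (SE, adjusted p = 0.0022), and within the smaller cluster, with 2 samples in each group, it was -0.58 ± 0.16 (SE, adjusted p = 0.10).

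Anxa4, an annexin of epithelia and secretory cells that binds vesicle membranes, ranged from 35.2 to 50.6 RPKM with a median of 45.8 in KD 24 h. In NC 24 h it ranged from 53.8 to 78.3 RPKM with a median of 66.7, so that the groups did not overlap. Its log2 fold change was -0.63 ± 0.13 (SE, adjusted p = 0.0044), and 9 of its 10 tested entries were called lower. KD 24 h replicate 6, the shallowest library, held the lowest value with 98 reads. In the larger cluster the log2 fold change was -0.79 ± 0.16 (SE, adjusted p = 0.0063) and in the smaller one -0.33 ± 0.12 (SE, adjusted p = 0.17).

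Anxa7, also called synexin, promotes membrane fusion and binds the calcium sensors ALG-2 and sorcin. Its KD 24 h samples ranged from 27.3 to 65.3 RPKM with a median of 50.8, and those of NC 24 h from 25.3 to 36.7 RPKM with a median of 30.9. The groups overlapped, as KD replicates 3 and 4, both of the smaller cluster, measured 34.5 and 27.3 RPKM and lay within the NC range, whereas the other 4 KD samples were at 50.4 RPKM or above. Anxa7 rose by a log2 fold change of 0.56 ± 0.17 (SE, adjusted p = 0.031). The rise was 0.68 ± 0.12 (SE, adjusted p = 0.004) within the larger cluster and 0.28 ± 0.15 (SE, adjusted p = 0.34) within the smaller one. This call was lost under 10 of 25 alternatives, among them leaving out KD replicate 1, 2 or 5 or NC replicate 1, 3, 5 or 6, with log2 fold changes of 0.50, 0.53, 0.53, 0.56, 0.56, 0.52 and 0.51.

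The most abundant members were not called at 24 h. Anxa2 had a log2 fold change of -0.29 ± 0.15 (SE, adjusted p = 0.18), Anxa1 of -0.14 ± 0.19 (SE, adjusted p = 0.64) and Anxa5 of 0.17 ± 0.09 (SE, adjusted p = 0.16). For Anxa3, also known as lipocortin III, it was -0.08 ± 0.19 (SE, adjusted p = 0.79). KD 24 h replicate 6 stood apart for Anxa2 at 2071 RPKM, and without it Anxa5 was called at 0.21 (adjusted p = 0.037), while Anxa1 and Anxa3 each moved to 0.02 without a call.

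Anxa8, best known from epithelia and from acute promyelocytic leukaemia, had too few reads at 24 h for the fit's minimum of 10 read equivalents in every sample of a group. KD 24 h replicates 1 to 6 measured 3.58, 2.67, 2.27, 0.611, 4.63 and 3.46 RPKM, or 125 reads in all. NC 24 h replicates 1 to 6 measured 0.873, 0.296, 0.16, 0.256, 0.422 and 0.441 RPKM, or 19 reads in all. Of the KD samples 5 lay above every NC sample, and replicate 4, of the smaller cluster, lay within the NC range. Means of 2.87 ± 1.38 RPKM in KD (SD, n = 6) and 0.408 ± 0.251 RPKM in NC (SD, n = 6) gave a ratio of 7.03 (two-sided exact permutation p = 0.0043, where the smallest possible value was 0.0022). With no minimum on reads, a setting chosen after seeing the data, limma gave a log2 fold change of 2.40 ± 0.46 (SE, adjusted p = 0.0074). In the smaller cluster alone this was 1.31 ± 0.74 (SE, adjusted p = 0.57). Among the 4 mesothelial markers Krt19, a keratin, averaged 50.3 RPKM in KD 24 h and 21.1 RPKM in NC 24 h, and the other 3 were at or near 0 in both groups. The part of these markers in the values of Anxa8 was not tested.

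**Figure D2:**
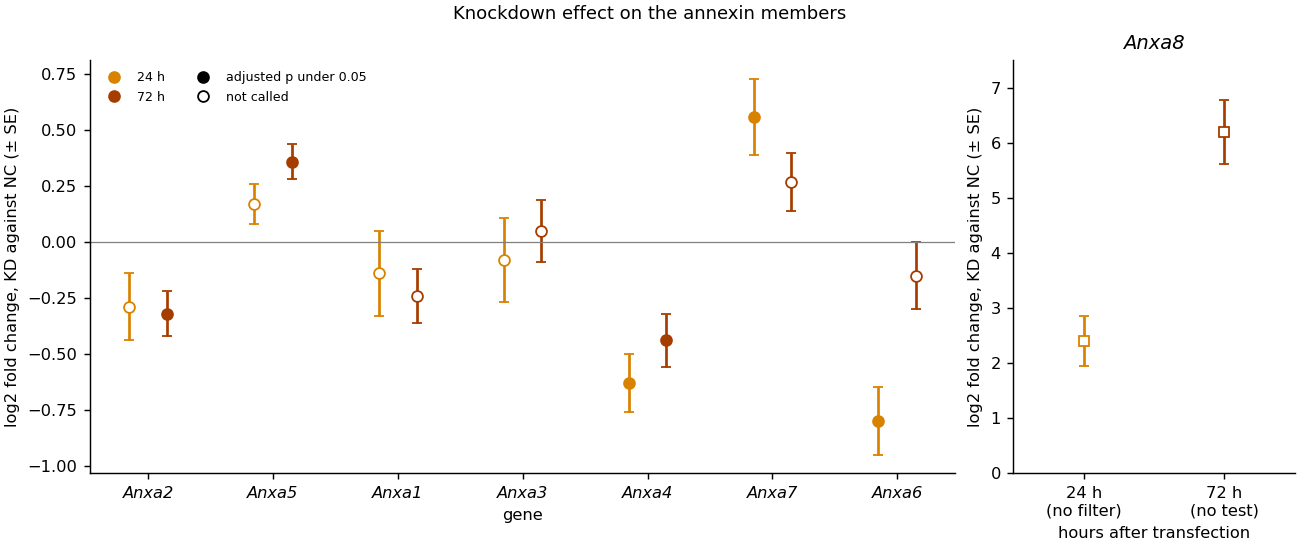
Log2 fold change of KD against NC (y axis) with SE for 7 annexins on the left and for Anxa8 on the right, on its own axis, at 24 h and 72 h; filled symbols mark an adjusted p under 0.05. Anxa4 and Anxa6 lie lowest at 24 h, Anxa7 highest, and Anxa5 is the filled point above 0 at 72 h; the Anxa8 points are drawn open, from a fit without a minimum on reads at 24 h (2.40) and as a description at 72 h (6.19).

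The second comparison concerned the state reached after 72 h. Among the 7 tested members other than Anxa8, 3 were called, Anxa5 higher and Anxa2 and Anxa4 lower, beside 22.4% of 54343 entries. Groups did not overlap for 1 of these 7, Anxa5, against 13.8% of all entries. The median log2 fold change of the 7 was -0.15, that of all entries 0.01. Scaling matters at this time. In RPKM as deposited the median over all entries was 0.252 higher in KD on the log2 scale, and the share of calls that were higher went from 46.1% after scaling to 80.9%. Directions below are relative to the scaled median.

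Anxa5, the phosphatidylserine-binding protein used to stain apoptotic cells, gave the clearest rise among members not chosen for it. Deposited RPKM in KD 72 h ranged from 1094 to 1164 with a median of 1135. The 5 NC 72 h samples measured 754.2, 747.6, 784.0, 664.0 and 749.6 RPKM, all below the lowest KD sample. After scaling the gap was narrower, with the lowest KD sample at 915.7 and the highest NC sample at 837.6 scaled RPKM. The log2 fold change was 0.36 ± 0.08 (SE, adjusted p = 0.0066), and 0.61 ± 0.08 (SE, adjusted p = 1e-04) in RPKM as deposited. It was 0.38 ± 0.07 (SE, adjusted p = 0.0018) within the larger and 0.31 ± 0.11 (SE, adjusted p = 0.12) within the smaller cluster. All 3 entries of the gene were called higher at 0.36.

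Anxa4 remained below the control at 72 h, with a log2 fold change of -0.44 ± 0.12 (SE, adjusted p = 0.019). Its KD 72 h samples ranged from 44.9 to 74.8 RPKM with a median of 54.9. NC 72 h samples measured 63.04, 74.2, 72.1, 60.9 and 54.7 RPKM. The groups overlapped, with KD replicates 5 and 6 of the smaller cluster highest at 74.8 and 65.2 RPKM and KD replicates 2 and 3 at the lower edge of the NC range. Within the larger cluster the log2 fold change was -0.52 ± 0.13 (SE, adjusted p = 0.014) and within the smaller one -0.26 ± 0.16 (SE, adjusted p = 0.34). The call was lost in RPKM as deposited, at -0.19 (adjusted p = 0.32). Of 10 tested entries of Anxa4 5 were called lower at this time.

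Anxa2 fell at 72 h, with a log2 fold change of -0.32 ± 0.10 (SE, adjusted p = 0.042). Deposited RPKM ranged from 2917 to 4005 with a median of 3113 in KD, and the 5 NC samples measured 3775, 3870, 3277, 2872 and 3601 RPKM, with overlap. The larger cluster alone gave -0.52 ± 0.07 (SE, adjusted p = 0.00024), whereas the smaller one gave 0.03 ± 0.10 (SE, adjusted p = 0.89). In RPKM as deposited the difference was -0.07 (adjusted p = 0.72). Of 7 tested entries of Anxa2 4 were called lower. Leaving out KD replicate 1, 2, 3 or 4 or NC replicate 1 or 6 also ended the call, with log2 fold changes of -0.31, -0.28, -0.30, -0.31, -0.29 and -0.30.

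The remaining members were not called at 72 h by the entry chosen for each. Anxa7 had a log2 fold change of 0.27 ± 0.13 (SE, adjusted p = 0.17), which was called at 0.52 in RPKM as deposited (adjusted p = 0.0066). Its KD samples ranged from 41.8 to 51.7 RPKM, above the 24.9 to 36.6 RPKM of NC before scaling. Of 6 tested entries of Anxa7 2 were called higher, among them the one with the highest mean RPKM, at 0.44 (limma adjusted p = 0.042). Anxa1 had -0.24 ± 0.12 (SE, adjusted p = 0.17), Anxa6 -0.15 ± 0.15 (SE, adjusted p = 0.51) and Anxa3 0.05 ± 0.14 (SE, adjusted p = 0.85). Of 10 tested entries of Anxa1 5 were called lower, at -1.05 to -0.91, and these averaged 1.88 to 3.20 RPKM. In RPKM as deposited Anxa1 and Anxa6 turned to 0.01 and 0.10, without a call.

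Anxa8 reached the level of Anxa6 in KD 72 h. Replicates 1 to 6 measured 33.2, 26.0, 29.7, 34.6, 16.8 and 20.4 RPKM, 1144 reads in all. The 5 NC 72 h samples measured 0.00, 0.3665, 1.10, 0.448 and 0.00 RPKM. The lowest KD sample was 15.3 times the highest NC sample, and the ratio of the means was 70.1. The log2 fold change was 6.19 ± 0.58 (SE), and 4.21 with a pseudocount of 1. The 2 lowest KD samples were replicates 5 and 6 of the smaller cluster, in which the log2 fold change was 4.22, beside 7.40 in the larger one. These values led to the choice of the gene and carry no test. Krt19 averaged 150 ± 24.3 RPKM in KD 72 h and 21.5 ± 3.07 RPKM in NC 72 h. The mesothelial list summed to between 119 and 173 RPKM in KD 72 h and to between 19.0 and 37.9 RPKM in NC 72 h. Upk3b was at 0 in every library, Msln averaged 0.922 RPKM in KD 72 h and 0.00 in NC 72 h, and Wt1 averaged 1.52 and 5.43 RPKM. The 6 epithelial markers summed to at most 1.74 RPKM in KD 72 h, with Epcam at 0.

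Over 23 samples and 12744 other genes, with 1 entry each, Krt19 was among the genes whose log2 levels followed Anxa8 most closely (Pearson r = 0.935). Serpinb9b, a clade B serpin, had r = 0.927, Akr1b3, an aldose reductase, r = 0.918, and Ptgs1, the constitutive cyclooxygenase, r = 0.917. Mean scaled RPKM of Serpinb9b was 16.5 in KD 24 h, 6.59 in NC 24 h, 70.7 in KD 72 h and 8.43 in NC 72 h. A pattern like that of Anxa8 follows from picking the gene by its correlation in these samples, and is no separate result. These correlations describe samples that share groups and libraries. Among the other members r with Anxa8 ran from -0.63 for Anxa2 to 0.71 for Anxa5.

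Levels over time without knockdown were compared between NC 72 h and NC 24 h. Of 7 tested members 1 was called, Anxa5, beside 9.11% of 52885 entries. Anxa5 rose by a log2 fold change of 0.31 ± 0.06 (SE, adjusted p = 0.0033), and none of the NC 72 h samples overlapped with NC 24 h, which ran from 571.5 to 639.1 RPKM. Anxa1 had a log2 fold change of -0.45 ± 0.15 (SE, adjusted p = 0.083), and it was called under 5 of 26 alternatives. Among these were the larger cluster alone, at -0.44 (adjusted p = 0.00049), and the smaller one, at -0.56 (adjusted p = 0.04). It was also called once NC 72 h replicate 4 was left out, at -0.57 (adjusted p = 0.021). The other 5 lay between -0.10 and 0.19. In knockdown cells 2 of the 7 members other than Anxa8 were called between KD 72 h and KD 24 h, beside 9.81% of 53234 entries. Anxa5 rose by 0.50 ± 0.10 (SE, adjusted p = 0.0054) and Anxa6 by 0.63 ± 0.17 (SE, adjusted p = 0.03). The call on Anxa6 was lost without KD 24 h replicate 1, 2 or 5 or KD 72 h replicate 1, 3, 4 or 5, at 0.58, 0.59, 0.59, 0.61, 0.62, 0.58 and 0.62. Anxa1 was at -0.55 ± 0.17 (SE, adjusted p = 0.054), and it was called under 5 of 25 alternatives. Among these were the smaller cluster alone, at -0.93 (adjusted p = 9.9e-05), and the fit without KD 24 h replicate 6, at -0.70 (adjusted p = 0.00073). The mean of Anxa8 was 9.30 times as high in KD 72 h as in KD 24 h. In RPKM as deposited 80.8% of the calls between the KD times were higher, beside 51.0% after scaling.

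Whether the knockdown acted differently at the 2 times was tested by an interaction term over all 4 groups. It called 0 of the 7 members other than Anxa8 with limma, beside 0.178% of 59609 entries, and 1 of the 7, Anxa6, had an unadjusted p under 0.05. With voom weights on recovered reads 0 members were called. For Anxa6 the effect at 72 h was higher than that at 24 h by 0.67 ± 0.21 (SE, adjusted p = 0.18), and 0.85 (adjusted p = 0.027) in RPKM as deposited. In that setting 96.1% of calls over all entries were higher, beside 64.2% after scaling. The effect on Anxa8 was 3.76 ± 0.76 (SE) larger at 72 h, given without a test.

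The library clusters marked several members within groups. In every group the mean of Anxa1 and of Anxa3 was higher in the smaller cluster than in the larger one, and that of Anxa7 was lower. For Anxa1 in NC 24 h the means were 933 and 636 RPKM, and for Anxa7 in KD 24 h they were 30.9 and 57.1 RPKM. The clusters had been drawn from deviations over all genes, so these values are a description.

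Genes that work with annexins were taken from a list of 36, of which 30 could be tested at each time. At 24 h 8 of them were called, 4 higher and 4 lower, and at 72 h 11 were called, 7 higher and 4 lower, with 6 called at both times. The shares with all samples stand beside the 22.6% and 22.4% of all entries given above. Within the larger cluster 6 and 13 were called, beside 13254 of 52991 and 13580 of 55034 entries. Within the smaller one 2 and 7 were called, beside 1523 of 53234 and 5783 of 56039 entries. Without NC 24 h replicate 4 the count at 24 h was 4, beside 9132 of 53184 entries. Without replicate 1, 3, 5 or 6 of that group it was 5, beside 9270 to 9895 entries. The median log2 fold change of the list was 0.02 at 24 h and 0.04 at 72 h.

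**Figure D3:**
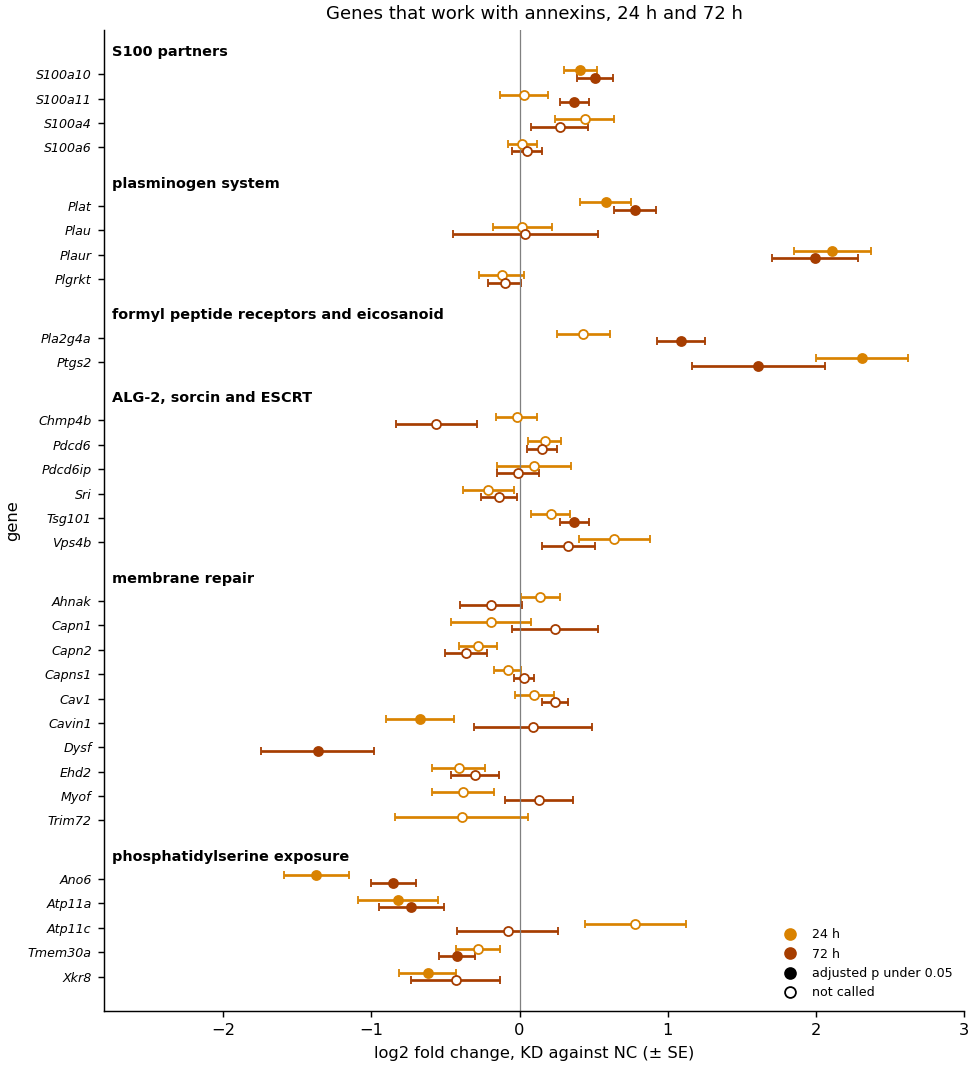
Log2 fold change of KD against NC (x axis) with SE for the tested genes of 6 groups that work with annexins (y axis) at 24 h and 72 h; filled points mark an adjusted p under 0.05. Plaur and Ptgs2 lie farthest to the right at 24 h, and Ano6 and Atp11a are filled to the left at both times.

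S100 proteins are small dimers, most of them calcium-binding, and several clamp annexin tails. S100a10, the light chain that joins 2 Anxa2 molecules, rose by 0.41 ± 0.11 (SE, adjusted p = 0.014) at 24 h and by 0.51 ± 0.12 (SE, adjusted p = 0.0061) at 72 h. Its scaled RPKM at 24 h was 1122 ± 153 (SD, n = 6) in KD and 842 ± 78.5 (SD, n = 6) in NC, without overlap. S100a11, a partner of Anxa1, was higher at 72 h by 0.37 ± 0.10 (SE, adjusted p = 0.018), a call lost without NC 72 h replicate 5 at 0.31 (adjusted p = 0.051). S100a6 and S100a4 were not called at either time. Within the larger cluster S100a10 rose by 0.55 (adjusted p = 0.0085) and by 0.75 (adjusted p = 7.5e-05), and within the smaller one it stood at 0.09 (adjusted p = 0.46) and 0.12 (adjusted p = 0.56).

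The heterotetramer of Anxa2 and S100a10 is a cell surface receptor for plasminogen and its activator. Plaur, the urokinase receptor, rose by 2.11 ± 0.26 (SE, adjusted p = 0.00017) at 24 h and by 1.99 ± 0.29 (SE, adjusted p = 0.00032) at 72 h, with groups apart at both. It had 89 reads in all of NC 24 h and 114 in NC 72 h, beside 384 and 529 in KD. At both times only KD carried Plaur past the minimum on reads. No alternative lost either call, the fit without that minimum among them. Plat, tissue plasminogen activator, was higher by 0.58 ± 0.17 (SE, adjusted p = 0.027) and by 0.78 ± 0.14 (SE, adjusted p = 0.0013). Plau and Plgrkt were not called at either time. The call on Plat at 24 h was lost without KD replicate 2 or 5 or NC replicate 3, 4, 5 or 6, at 0.52, 0.50, 0.55, 0.57, 0.53 and 0.54.

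Anxa1 acts on formyl peptide receptors and restrains the release of arachidonic acid. Fpr1 and Fpr2 had too few reads to be tested. Ptgs2, the inducible cyclooxygenase, rose by 2.31 ± 0.31 (SE, adjusted p = 0.00036) at 24 h and by 1.61 ± 0.45 (SE, adjusted p = 0.019) at 72 h, from means of 0.240 and 0.757 scaled RPKM in NC. Ptgs2 had 25 reads in all of NC and 163 in KD at 24 h, and 72 and 273 at 72 h. At both times only KD carried it past the minimum on reads. Without that minimum the log2 fold change was 2.29 (adjusted p = 0.0043) at 24 h, and 1.62 (adjusted p = 0.052) at 72 h. Without NC 72 h replicate 4 the later call was lost at 1.39 (adjusted p = 0.05). Pla2g4a, the cytosolic phospholipase A2, rose by 1.09 ± 0.16 (SE, adjusted p = 0.00039) at 72 h, with groups apart, and had 0.43 ± 0.18 (SE, adjusted p = 0.10) at 24 h.

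Anxa5 binds phosphatidylserine once it reaches the outer leaflet. Of 5 genes that move this lipid 3 were called lower at each time, beside 11.6% of all entries at 24 h and 12.1% at 72 h. With 5 genes this count is a description. Ano6, a calcium-activated scramblase, fell by 1.37 ± 0.22 (SE, adjusted p = 0.00092) at 24 h and by 0.85 ± 0.15 (SE, adjusted p = 0.0013) at 72 h. Atp11a, a flippase, fell by 0.82 ± 0.27 (SE, adjusted p = 0.042) and by 0.73 ± 0.22 (SE, adjusted p = 0.029). Xkr8, the scramblase cut by caspases, fell by 0.62 ± 0.19 (SE, adjusted p = 0.029) at 24 h, and Tmem30a, the flippase subunit, by 0.42 ± 0.12 (SE, adjusted p = 0.021) at 72 h. At 24 h the call on Xkr8 was lost without KD replicate 2 or NC replicate 1, 2, 4 or 5, at -0.62 to -0.55, and that on Atp11a without KD replicates 1 to 5 or any NC replicate but 2, at -0.85 to -0.72. At 72 h the call on Atp11a was lost without KD replicate 2 or 4 or NC replicate 4 or 5, at -0.74 to -0.65. In RPKM as deposited the 72 h calls on Tmem30a (-0.17, adjusted p = 0.29) and Atp11a (-0.50, adjusted p = 0.13) were lost. Scramblases and flippases have opposite effects on the exposure of the lipid, and genes of both kinds are among those that fell.

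Few genes of membrane repair and of the ESCRT machinery were called. Cavin1, a caveolar coat protein, fell by 0.67 ± 0.23 (SE, adjusted p = 0.049) at 24 h, a call lost under 14 of 25 alternatives, among them leaving out KD replicate 1, 3 or 6 or any NC replicate but 5, at -0.72 to -0.51. Dysf, or dysferlin, fell by 1.36 ± 0.38 (SE, adjusted p = 0.019) at 72 h, at a mean of 0.254 scaled RPKM in KD and 0.860 in NC, and it was not called without NC replicate 6, at -1.13 (adjusted p = 0.055), or without the minimum on reads, at -1.35 (adjusted p = 0.11). The other 8 repair genes were not called at either time, Trim72 being tested at 24 h alone. Tsg101 of ESCRT-I was higher at 72 h by 0.37 ± 0.10 (SE, adjusted p = 0.021), and without NC replicate 1 it was at 0.30 (adjusted p = 0.055). Pdcd6 and Sri, which encode the Anxa7 partners ALG-2 and sorcin, were not called. Anxa9, Anxa10 and Anxa13 had too few reads for either comparison.

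**Figure D4:**
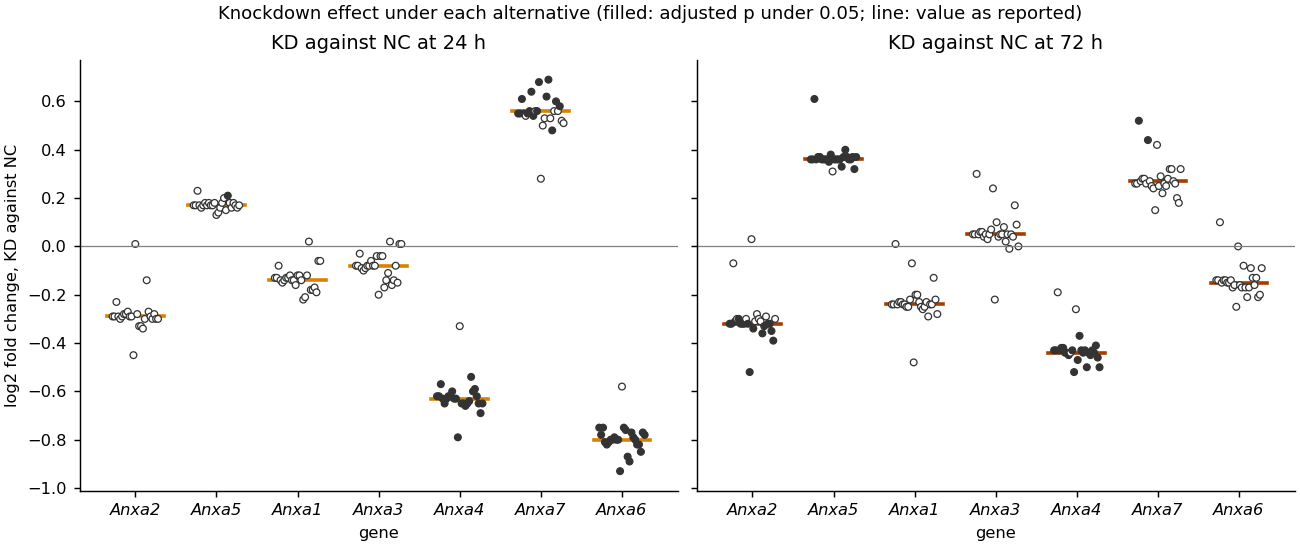
Log2 fold change of KD against NC (y axis) for 7 annexins (x axis) at 24 h and 72 h under each alternative setting (points, filled where the adjusted p is under 0.05), with the value as reported drawn as a line. Anxa6 at 24 h stays between -0.93 and -0.58 and Anxa5 at 72 h between 0.31 and 0.61, whereas Anxa7 at 24 h and Anxa2 at 72 h show many open points.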

How the data were processed

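Libraries were made by bulk RNA barcoding and sequencing of 3′ ends. The authors aligned reads to transcripts of the NCBI reference sequences with the Genomatix suite; version, build and filters were not given in the sources used here. The deposited values are RPKM, written with decimal commas, for 24 libraries. Entries of a gene overlap and share reads. All sample columns were used, with 0 left out.

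Library totals and whole reads were recovered from the steps of low RPKM values, of which 94.2% to 94.8% were whole multiples in 23 libraries and 75.4% in NC 72 h replicate 6. These totals give the depth, and reads without molecular identifiers cover counting error only. Entries with at least 10 read equivalents in the median library, in a number of samples equal to the smaller group's size, were scaled by a trimmed mean of log ratios (30% and 5% trimmed). Linear models of log2(RPKM + 0.1) with an intensity trend were fitted in limma 3.58.1 (R 4.3.3) to the groups compared, two-sided, with Benjamini-Hochberg adjustment over all entries and a threshold of 0.05. The fit was checked on simulated data. Samples were grouped by their titles. Alternatives were other pseudocounts, scalings, filters, entries, voom on recovered reads, a replicate block, library clusters and leaving out each library. Named were the 9 members, associated genes called in a knockdown comparison (others counted), the 5 genes most correlated with Anxa8, and Ctcflos; some genes are not reported here, and lines on genes outside this rule were chosen after their values were seen. The members and lists were chosen with earlier results of these data known.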

Additional observations from a re-analysis of the deposited data

Results flagged for a closer look

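Of 32 sets of samples, 8 annexins in 4 groups each, 2 held a sample far from the others, where chance flags about 1 in 20. Anxa2 in KD 24 h replicate 6 was at 2071 RPKM, beside 3334 to 3817 in the other 5, and this is the library with the fewest reads. Anxa7 in KD 72 h replicate 2 was at 51.7 RPKM, beside 41.8 to 45.5 in the other 5. For Anxa8 the estimated knockdown effect was 3.76 larger at 72 h than at 24 h on the log2 scale. The 72 h libraries had led to its choice, so this difference is a description and carries no test. The part of depth or cluster in these values was not tested.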

How the results depend on the processing

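Counts of members leave out Anxa8. Of 95 counts under alternatives other than leaving out a library, 82 stayed within 1.5 times the reported count, and for the rest the cause was not tested unless fewer samples or entries show it. The smaller cluster alone, with 2 samples a group, called 0 members at 24 h, 0 at 72 h and 0 in the interaction, and 2 and 7 associated genes, and there Anxa2 at 72 h turned to 0.03. Without the minimum on reads 3 associated genes were called at 24 h and 1 member between KD times. In the interaction RPKM as deposited called 1 member. Between the NC times 2 members were called with the cluster as covariate, in the larger cluster, or with NC 72 h replicates 2 and 3 separate. Leaving out 1 library gave 2 to 4 members and 4 to 9 associated genes at 24 h, 2 to 3 and 9 to 13 at 72 h, 1 to 2 members between NC times, 1 to 3 between KD times and 0 in the interaction, the 4 associated genes arising without NC 24 h replicate 4.

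With the replicate block 2 members were called at 24 h, where Anxa7 was lost (adjusted p = 0.063), 1 at 72 h, where Anxa2 (0.18) and Anxa4 (0.062) were lost, and 0 in the interaction, with 4 and 6 associated genes at the 2 times. Deviations of same-numbered KD and NC samples had a mean correlation of -0.10 at 24 h (-0.22 to 0.19) and 0.04 at 72 h (-0.14 to 0.2). Whether same-numbered samples share a culture cannot be told from these values, and the labels give only the number.

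Over all entries, apart from sets of fewer entries, calls moved by more than 1.5 times in some settings: 1523 rather than 11812 were called at 24 h, and 5783 rather than 12165 at 72 h, in the smaller cluster alone, 1748 to 7233 around 4819 between NC times and 27 to 1825 around 106 in the interaction. Of 1663 values for 1 gene in 1 comparison, 116 lost a call and 16 gained one. A further 1, Anxa2 at 72 h in the smaller cluster, lost its call with a change of sign. The 1663 include genes without a reported call, which had none to lose, so that 116 of 1663 is no rate of loss. Depth limits Anxa8 in NC, Anxa9, Anxa10, Anxa13 and the formyl peptide receptors.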
